A study of Mus musculus with 2 samples.

Results

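The genes described are 9 markers of macrophages and other leukocytes, of 21938 protein-coding genes: Laptm5, Spi1, Csf1r, Adgre1, Fcgr3, Ptprc, Cd68, C1qa and Mrc1. They were chosen by name from genes known in these cells, with their peak counts in these same libraries already in view, so the numbers of peaks below describe them and are not tested. DNase-seq reads out open chromatin as the places where the enzyme DNase I cuts the DNA of nuclei. The tissue was gastrocnemius, a calf muscle, of female B6CASTF1/J mice, an F1 hybrid strain, aged 10 days. Both libraries belong to 1 group. The labels number them as biological replicates 1 and 2 and name 3 females for each. No other genotype, treatment or time was part of the design, so each value is given for both libraries and their difference is the only replicate spread.

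Resident macrophages of muscle clear debris and respond to injury. Their identity rests on PU.1, the protein of Spi1, an ETS-family transcription factor, and their survival on signalling through the receptor encoded by Csf1r. Many genes of the lineage have promoters with few CpG dinucleotides and are also controlled by distal enhancers that PU.1 binds together with other factors, which DNase-seq shows as peaks away from the transcription start site (TSS). In whole muscle most nuclei belong to other cells, and in bulk tissue a small number of leukocyte nuclei and a weakly open site in each of them cannot be told apart.

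The peak list used held 114758 peaks in replicate 1, 4.28 times as many as in replicate 2, and the tallest peaks of replicate 1, as many as replicate 2 had, were taken as a list of equal length. Height is the deposited signal of a peak, normalized to read depth, and its unit is otherwise not stated. A promoter peak lay within 1 kb of an annotated TSS of the gene, a distal peak lay more than 1 kb from every protein-coding TSS and no more than 50 kb from one of the gene. Peaks of the libraries counted as shared when the overlap covered 50% or more of at least 1 of them. Distal peaks had a median height of 1.02 in replicate 1, where 7.96% were shared, and of 1.23 in replicate 2, where 70.5% were shared. Among 10 genes of fast skeletal muscle, the tissue named by the labels, promoter peaks were found at 5 in replicate 1 and 3 in replicate 2 and were shared at 2. Peaks are called intervals with no count behind each, so no interval for counting error is given.

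Of the 9 genes, only Fcgr3 had a promoter peak, 1 of 9 in each library and 1 of 9 shared. Over all protein-coding genes 66.7% had a promoter peak in replicate 1, 49.6% among its tallest peaks, 51.4% in replicate 2 and 45.1% in both at a shared position. The other 8 genes lay in the tertile of genes with the lowest CpG ratio within 500 bp of a TSS (observed over expected CpG, under 0.389), where 15.7% of genes had a promoter peak in replicate 1 and 4.84% in replicate 2. Against that base, 0 of 8 is near the background and is not a result about these genes. Fcgr3 had a ratio of 0.841, in the highest tertile, whose lower boundary was 0.753. In that tertile 77.9% of genes had a shared promoter peak. A gene with several TSSs was given the highest ratio among them, and which TSS of Fcgr3 gave 0.841 was not examined.

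Distal peaks were found at all 9 genes in replicate 1, at 8 among its tallest peaks and at 8 in replicate 2, and 7 had a shared distal peak. Over all genes these shares were 84.0%, 44.3%, 40.1% and 35.5%. Summed over the 9 genes there were 72 distal peaks in replicate 1 and 29 in replicate 2. Of these, 27 of replicate 1 and 25 of replicate 2 were shared, since 1 wide peak can pair with several. Fcgr3 alone held 14 of the 27 and 12 of the 25. With 50% of both peaks required to overlap, 22 of replicate 1 were shared, 9 of them at Fcgr3. Shared peaks are counted in replicate 1 from here on unless stated. Their mean number per gene was 3.0 and the median 2, against a mean of 0.567 and a median of 0 over all genes. The member itself had the nearest TSS for 13 of the 27, and without Fcgr3 for 8 of 13.

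**Figure D1:**
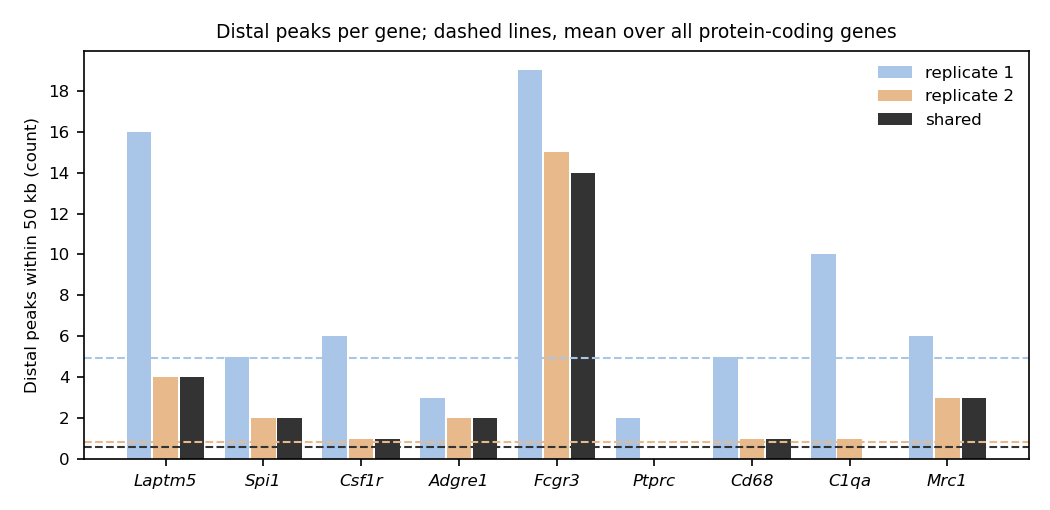
Distal peaks within 50 kb of each of the 9 genes, as bars for replicate 1, replicate 2 and the shared peaks, with dashed lines at the mean over all 21938 protein-coding genes (4.93, 0.826 and 0.567). Fcgr3 stands highest with 19, 15 and 14, Laptm5 follows with 16, 4 and 4, and Ptprc and C1qa have 0 shared.

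Spi1 encodes PU.1, the transcription factor that defines the myeloid lineage. It had no promoter peak at any of its 4 annotated TSSs, and no base within 1 kb of them had a false discovery rate (FDR) of at most 0.05 in either library. It had 5 distal peaks in replicate 1 and 2 in replicate 2, and both of the latter were shared. The shared peak nearer to the promoter lay in an intron of Spi1, 4.72 kb from a TSS, at chr2:91101501-91101660, with a height of 5.76 in replicate 1 and 2.24 in replicate 2. The taller lay wholly in coding sequence of an exon of Spi1, at chr2:91115161-91115320 of mm10 (GRCm38), with a height of 13.5 in replicate 1 and 4.11 in replicate 2. These heights passed 97.5% and 97.6% of the peaks of their libraries, and each library had 2 footprints inside. The nearest TSS to that peak was not that of Spi1, at 18.4 kb, but that of Mybpc3, which encodes a cardiac sarcomere protein, at 2.82 kb, and the next after Spi1 was Madd at 23.9 kb. It is shown because an open coding exon carried the tallest signal at the gene. None of the 11 motifs searched matched its centre, and capitals mark its 12 CpG dinucleotides (plus strand, 5′ to 3′):
Spi1 exon peak: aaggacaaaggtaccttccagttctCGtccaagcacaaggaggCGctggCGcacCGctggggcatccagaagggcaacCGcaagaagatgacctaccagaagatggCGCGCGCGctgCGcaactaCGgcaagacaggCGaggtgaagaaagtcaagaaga

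The promoter peaks within 50 kb of Spi1 were all those of other genes. Promoter peaks of Psmc3, a proteasome subunit, reached 13.9 in replicate 1 and 3.19 in replicate 2, and those of Slc39a13, a zinc transporter, 8.94 and 4.27. Mybpc3 had promoter peaks in replicate 1 only, the tallest at 7.87. Within 50 kb of Spi1, then, the tallest promoter signal belonged to genes of other functions, and 1 of the 2 shared distal peaks had Spi1 as its nearest gene.

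Fcgr3 encodes a low-affinity receptor for the constant part of immunoglobulin G on macrophages, natural killer cells and neutrophils. Its promoter peak at chr1:171064541-171064700 had a height of 4.65 in replicate 1 and 5.19 in replicate 2, where it passed 99.2% of all peaks. It lay in an intron, 235 bp from the most upstream of 3 GENCODE starts, at position 171064935. The starts at 171059403 and 171058054 had 0 peaks within 1 kb in either library, as had both RefSeq starts of the gene, at 171059403 and 171059394. Replicate 1 had further peaks 346 bp and 953 bp from the upstream start, with heights of 1.98 and 1.08, and replicate 2 had another 847 bp from it, at 1.81. Just outside the limit of 1 kb, a shared peak 1.07 kb away in replicate 1 and 1.1 kb away in replicate 2 had heights of 0.955 and 1.72. When only the transcripts of the GENCODE basic set were used, Fcgr3 had no promoter peak and the count over the 9 genes was 0 in both libraries.

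The peaks around Fcgr3 lie beside tRNA genes, which RNA polymerase III transcribes from promoter elements inside the gene, the A box and the B box. RefSeq places 25 of its 403 tRNA genes on the main chromosomes within 50 kb of an Fcgr3 TSS. The shared promoter peak abuts n-TGtcc1, a tRNA-Gly gene. All 3 promoter peaks of replicate 1 and both of replicate 2 lay within 100 bp of a tRNA gene. So did 10 of 19 distal peaks in replicate 1, 10 of 15 in replicate 2 and 9 of the 14 shared, against 0.204% and 1.17% of all distal peaks in the libraries and 1.53% of the shared ones of replicate 1. Of the 78 peaks in replicate 1 and 26 in replicate 2 within 50 kb of the other 8 genes, 0 lay that close to a tRNA gene. With peaks within 100 bp of a tRNA gene left out, an alternative chosen after seeing the data, Fcgr3 kept 5 shared distal peaks and no promoter peak. Most of those 5 were still close to a tRNA gene. Within 500 bp of one lay 17 of the 19 distal peaks of replicate 1, 13 of the 15 of replicate 2 and 13 of the 14 shared.

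Some of these tRNA genes are printed because peaks sit on them. At n-TGtcc1 the shared promoter peak only touches the edge of the gene, and the B box letters lie outside that peak. Each is a gene of mm10 (GRCm38) read on its own strand, 5′ to 3′, with capitals on the match to the B box letters GTTCGANNC: n-TNgtt6 (tRNA-Asn) at chr1:171033942-171034015 (-), n-TGtcc1 (tRNA-Gly) at chr1:171064699-171064770 (-), n-TDgtc5 (tRNA-Asp) at chr1:171102371-171102442 (+) and n-TVcac6 (tRNA-Val) at chr1:171111443-171111515 (+).
n-TNgtt6: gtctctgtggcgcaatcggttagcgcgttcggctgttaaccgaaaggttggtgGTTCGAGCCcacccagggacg
n-TGtcc1: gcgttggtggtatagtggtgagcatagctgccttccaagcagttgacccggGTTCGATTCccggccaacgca
n-TDgtc5: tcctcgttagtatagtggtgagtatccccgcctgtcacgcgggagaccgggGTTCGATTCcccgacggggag
n-TVcac6: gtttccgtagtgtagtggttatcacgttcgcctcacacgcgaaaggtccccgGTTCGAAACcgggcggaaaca

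The peak at n-TNgtt6 had a height of 6.43 in replicate 1 and 1.72 in replicate 2, and the peak at n-TDgtc5 5.94 and 3.15. The peak at n-TVcac6 stood at 3.02 in replicate 1. In replicate 2 a wider peak of 2.58 covered n-TVcac6 and also overlapped the neighbouring replicate 1 peak of 8.15. The heights at n-TVcac6 are therefore not of like intervals. Searched on both strands in the central 150 bp, the B box letters were in 7 of 19 Fcgr3 distal peaks of replicate 1 and 4 of 15 of replicate 2, against 0.286% and 0.727% of all distal peaks. They were in none of the distal peaks of the other 8 genes, 53 in replicate 1 and 14 in replicate 2.

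The 25 tRNA genes hold only 9 distinct sequences, and all 25 contain the B box letters. Within 100 bp, 13 had a peak in replicate 1, 12 in replicate 2 and 11 in both. Those 11 are 44.0% of the window, while 127 of the 378 tRNA genes elsewhere, 33.6%, had a peak in both. The remainder were not spread evenly. A block of tRNA genes beside the upstream start of Fcgr3 recurs in a pair of further copies upstream, and over stretches of 3300 bases these copies share 81.8% to 86.5% of their words of 36 bases. The tRNA genes of the further copies had no peak in either library. Of the 11 tRNA genes with no peak in either library, 8 have the same sequence as a tRNA gene with a peak in both. How reads that align to several places were treated is not given in the sources used here, so an absent peak in these copies cannot be told apart from reads that could not be placed.

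**Figure D2:**
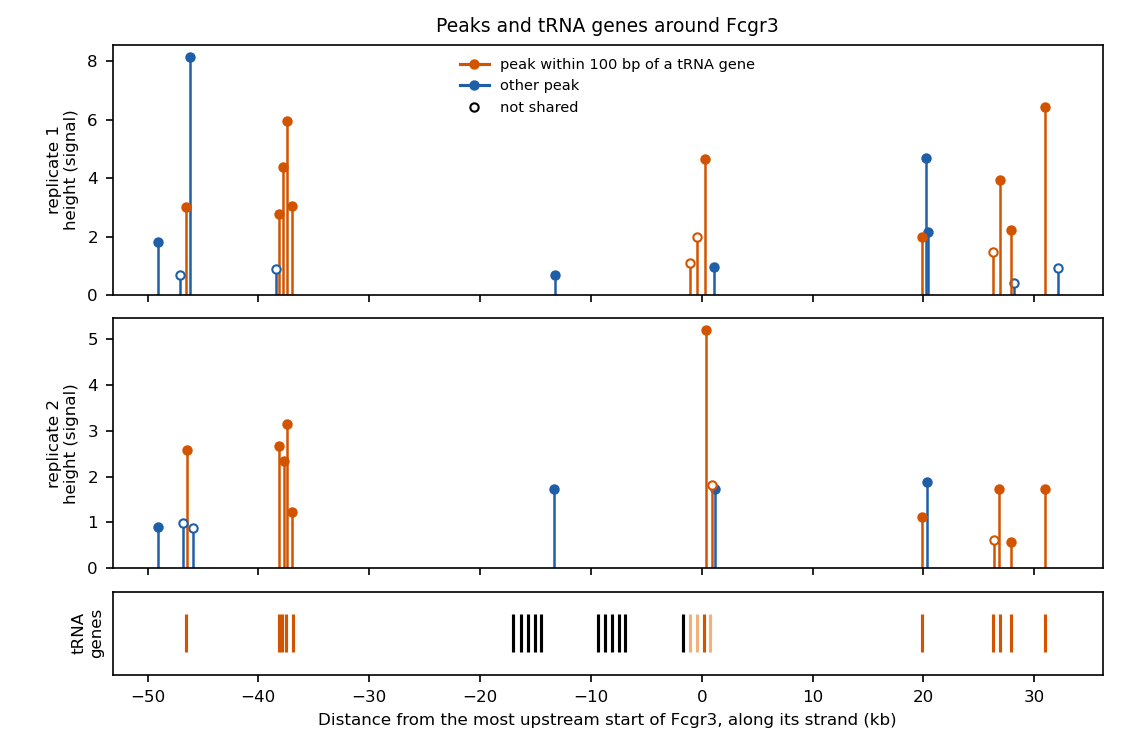
Peaks within 50 kb of an Fcgr3 TSS by distance from its most upstream start along the strand (kb), with height in signal units for replicate 1 (top) and replicate 2 (middle), filled where shared, orange within 100 bp of a tRNA gene. Ticks at the bottom are the 25 tRNA genes, dark orange with a peak in both libraries (11), light orange in 1 library and black in neither (11); the black ticks stand together just upstream of the start.

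The tallest shared distal peak at Fcgr3, at chr1:171111101-171111260, had a height of 8.15 in replicate 1, and its partner in replicate 2, a wider peak that also covers n-TVcac6, had 2.58. The nearest TSSs were those of Cfap126, a cilium protein, at 2.66 kb, and Sdhc, a subunit of succinate dehydrogenase, at 39.3 kb. It is shown because it holds the CTCF core letters CNAGGTGGC in its centre, in capitals (mm10, plus strand), as 2.87% of all distal peaks of replicate 1 and 7.02% of the shared ones do. The shared promoter peak is shown beside it with its 12 CpG dinucleotides in capitals.
Fcgr3 distal peak: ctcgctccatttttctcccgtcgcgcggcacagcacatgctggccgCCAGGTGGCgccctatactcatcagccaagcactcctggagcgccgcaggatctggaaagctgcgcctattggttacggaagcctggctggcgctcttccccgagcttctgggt
Fcgr3 promoter peak: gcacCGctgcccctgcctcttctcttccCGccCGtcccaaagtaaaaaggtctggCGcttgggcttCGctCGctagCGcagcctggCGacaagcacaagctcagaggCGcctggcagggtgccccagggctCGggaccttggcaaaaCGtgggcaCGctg

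Laptm5 encodes a lysosomal membrane protein of blood cells that turns down receptor signalling. It had no promoter peak at its 10 annotated TSSs. In replicate 1 it had 16 distal peaks, with heights from 0.8 to 6.3 and a median of 2.21, a number reached by 4.02% of genes. In replicate 2 it had 4, from 1.14 to 2.5, and all 4 were shared, a number of shared peaks reached by 1.81% of genes. Of these, 3 were upstream and had Laptm5 as nearest gene. The peak 34.4 kb upstream had heights of 6.13 and 2.5, that 20.7 kb upstream 3.94 and 2.13, and that 6.59 kb upstream 5.43 and 1.14. The heights of the last differed most between the libraries. The remaining shared peak, 28.3 kb downstream of a TSS at 5.7 and 2.42, lay nearer to Matn1, a cartilage matrix protein, and held the CTCF core letters. Peaks inside the gene were found in replicate 1 only, 2 of them in introns at 0.8 and 1.24.

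The tallest shared peak of Laptm5 is shown as the farthest upstream of the set. It lies between genes at chr4:130878641-130878820 (mm10, plus strand), with Sdc3 at 61.8 kb as the next gene, and capitals mark the Sp letters GGGCGG on the minus strand, which 6.88% of all distal peaks of replicate 1 and 15.2% of the shared ones hold:
Laptm5 upstream peak: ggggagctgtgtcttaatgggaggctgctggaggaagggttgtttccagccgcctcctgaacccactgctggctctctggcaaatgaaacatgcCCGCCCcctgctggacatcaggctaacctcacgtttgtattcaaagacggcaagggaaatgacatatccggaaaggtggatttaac

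Adgre1 encodes the surface receptor that the F4/80 antibody detects on mouse macrophages. No promoter peak was found, and no base near its TSSs had an FDR of at most 0.05. Of 3 distal peaks in replicate 1, the 2 shared ones lay side by side between Vav1, a signalling protein of blood cells, and Adgre1. The peak 23.8 kb upstream had heights of 3.76 and 2.23, and that 22.8 kb upstream 5.04 and 2.29. The former was nearer to the TSS of Vav1 (22.9 kb) and the latter to that of Adgre1 (22.8 kb), so their owner cannot be told from distance. The taller held the CTCF core letters. The Vav1 promoter itself had no peak in either library.

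Csf1r encodes the receptor for macrophage colony-stimulating factor, and an enhancer in one of its introns is known in macrophages. In the peak lists used here its introns held 1 peak, in replicate 1, 2.62 kb from a TSS with a height of 1.21 and 5 footprints, and none in replicate 2. Whether that peak is the known enhancer was not tested. Its single shared distal peak, with heights of 4.31 and 3.4, lay in an intron of Pdgfrb, a receptor of mural and mesenchymal cells, 23.3 kb from the Pdgfrb TSS and 31.9 kb from that of Csf1r. In replicate 2 this height passed 94.5% of all peaks. The other 3 upstream peaks, from 0.71 to 1.73 in replicate 1, were also in Pdgfrb introns.

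Ptprc encodes CD45, the phosphatase carried by all nucleated blood cells. In the peak lists used here it had the fewest distal peaks of the 9 genes in each library. Replicate 1 had 2 peaks inside introns, with heights of 0.65 and 0.352, which passed 23.9% and 4.25% of its peaks, and replicate 2 had 0 peaks within 50 kb of any of its 12 TSSs. No other protein-coding TSS lies in that window.

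C1qa encodes a chain of the complement protein C1q, which macrophages make, and lies beside C1qb and C1qc. Replicate 1 had 10 distal peaks, from 1.29 to 5.38, and replicate 2 had 1, at 1.85, and none were shared. Of the 10, 3 had C1qa as the nearest gene, and 4 were in introns of Epha8, an ephrin receptor. The promoter of C1qc had a peak of 2.3 in replicate 1 only, and C1qb had none.

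Mrc1 encodes the mannose receptor of tissue macrophages. No promoter peak was found at its 2 annotated TSSs. All 3 distal peaks of replicate 2 were shared, and all 3 had Mrc1 as the nearest gene, with no other protein-coding TSS in the window. These 3 peaks lay within 50 kb only of the downstream TSS, at position 14328561. From the upstream TSS, at 14229392, their centres were 66.2, 112 and 113 kb away. The peak in an intron had heights of 5.48 and 1.9. The peaks 13.2 kb and 13.7 kb beyond the downstream TSS, past the end of the gene, had 6.28 and 1.06, and 0.895 and 0.772. The taller of these, at chr2:14341761-14341940, is shown with capitals on the E-box letters CAGCTG, which myogenic factors bind and which 15.9% of the shared distal peaks of replicate 1 hold, and the next gene, Slc39a12, is 46.4 kb away (mm10, plus strand):
Mrc1 downstream peak: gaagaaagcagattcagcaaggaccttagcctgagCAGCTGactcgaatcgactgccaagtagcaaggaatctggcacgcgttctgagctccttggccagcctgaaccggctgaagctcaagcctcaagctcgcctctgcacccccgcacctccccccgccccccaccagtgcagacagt

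Cd68 encodes a lysosomal glycoprotein used to stain macrophages. It had no promoter peak, while 10 other protein-coding genes have a TSS within 50 kb, and 19 of the 24 peaks in replicate 1 and 7 of the 8 in replicate 2 were at promoters of such genes. The tallest belonged to Fxr2, an RNA-binding protein (32.2 and 6.19), Eif4a1, a translation initiation helicase (23.1 and 5.48), and Senp3, a SUMO protease (19.4 and 1.91). The single shared distal peak, 40.8 kb upstream, had heights of 13.5 and 1.27, so it passed 97.5% of peaks in replicate 1 but 38.5% in replicate 2. Its nearest TSSs were those of Tnfsfm13 (10.8 kb), Tnfsf12, slightly farther, and Tnfsf13 (21.1 kb), genes of TNF-family ligands. It is shown, at chr11:69706861-69707040 (mm10, plus strand), with capitals on the AP-1 letters TGANTCA, which 4.48% of all distal peaks of replicate 1 and 3.92% of the shared ones hold:
Cd68 upstream peak: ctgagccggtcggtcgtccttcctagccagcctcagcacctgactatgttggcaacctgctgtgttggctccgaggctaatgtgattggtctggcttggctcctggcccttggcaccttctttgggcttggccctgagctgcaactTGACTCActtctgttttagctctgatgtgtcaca

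**Figure D3:**
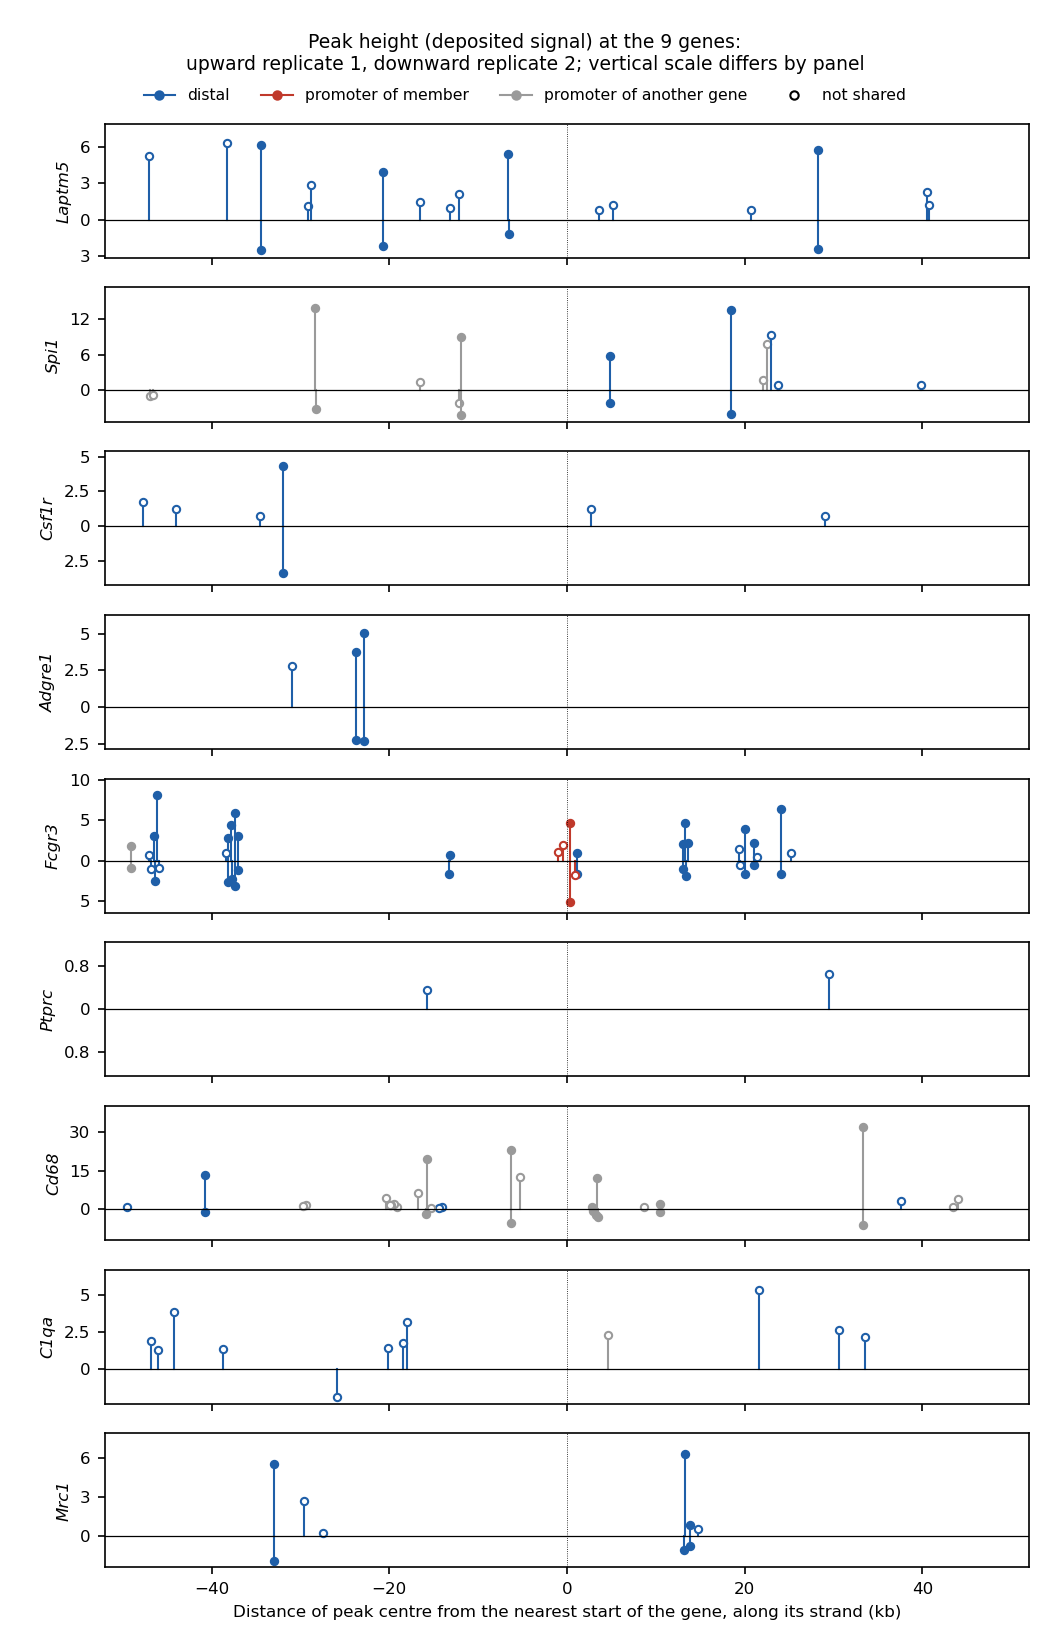
Height (signal) of every peak within 50 kb of a TSS of the 9 genes by distance of the peak's centre from the nearest TSS of the gene (kb, along its strand), upward for replicate 1 and downward for replicate 2, with a vertical scale of its own in each panel. Filled points are shared and open ones are not; red promoter peaks appear at Fcgr3 only, and grey promoter peaks of other genes fill the Cd68 panel.

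Below the threshold of the peak lists, weak signal was present at some promoters. The deposited FDR reached at most 0.05 within 1 kb of a TSS at 4 of the 9 genes in replicate 1 and 2 in replicate 2, against 71.8% and 60.9% of all genes. Cd68 passed in both, with a best FDR of 0.00387 and 0.0138 over 158 and 75 bases. Csf1r (0.00518) and Ptprc (0.00838) passed in replicate 1 only, and Fcgr3 reached 1.62e-35 and 1.84e-20. The longer peak list deposited for each library gave promoter peaks at the same genes, 4 of 9 and 2 of 9, against 71.1% and 59.7% of all genes. The Cd68 peaks of that list were low, at 0.543 and 0.579, and the single promoter peak that counted as shared was that of Fcgr3.

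Without Fcgr3, the 13 shared distal peaks of the other genes had a median height of 5.48 in replicate 1 and 2.23 in their partners, against 3.0 and 1.45 over all shared distal peaks of replicate 1 and their partners. All 13 were higher in replicate 1, as were 84.2% of all shared distal peaks. Among the tallest peaks of replicate 1, whose lowest height was 2.71, were 12 of the 13, against 55.4% of all shared distal peaks. Their place was between genes for 9, in introns for 3 and in an exon for 1. The 45 unshared distal peaks of replicate 1 at all 9 genes had a median height of 1.24, and 9 were among the tallest. A mean of 2.6 footprints fell inside a distal peak of the 9 genes in replicate 1 and 2.83 in replicate 2, against 2.46 and 1.94 over all distal peaks.

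Letters bound by blood-cell factors are rare in distal peaks of these libraries as a whole, and the numbers here are too small to place the 9 genes above or below that. The PU.1 letters GAGGAAGT, searched on both strands in the central 150 bp, were in 0 of the 13 shared peaks and in 2 of the 53 distal peaks of replicate 1 outside Fcgr3, against 0.859% and 0.926% over all. Both of those peaks were found in replicate 1 only: 1 near Madd in the Spi1 window and 1 in a Senp3 exon in the Cd68 window. The RUNX letters TGTGGTTT were in 1 of the 53, in a Ptprc intron, against 0.834%, and the C/EBP letters TTGCGCAA and the IRF motif in 0, against 0.0271% and 0.9%. The E-box CAGCTG was in 17 of the 53 and 4 of the 13, against 18% and 15.9%. The CTCF core was in 3 and 2, against 2.87% and 7.02%. Of the 14 distal peaks of replicate 2 outside Fcgr3, the E-box was in 4, against 14.9%, and the CTCF core in 2, against 4.93%. The PU.1, RUNX, C/EBP and IRF letters were in 0 of those 14. The E-box was the most frequent of these matches in each library, as it was over all distal peaks. Its pattern is the shortest of them, so the counts of different patterns are not of like kind. The number of peaks is small, and a match or its absence is a description of letters only.

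Of 105 other leukocyte genes on lists drawn up with earlier results known, 48 had a promoter peak in replicate 1, 19 among its tallest, 23 in replicate 2 and 23 shared, fewer than the shares of all genes given above. Transcription factors of myeloid and blood cells held 13 of the 23 shared, out of 22 genes. Surface and phagocyte genes of macrophages held 2 of 30, signalling genes 3 of 20, lymphocyte genes 2 of 15, growth factor ligands of macrophages 3 of 6, and granulocyte and mast cell genes 0 of 12. Of the 105, 68 were in the lowest CpG tertile, and 2 of those 68 had a shared promoter peak, against 3.51% of all genes in it. The lists thus differ in CpG ratio as well as in function, and these cannot be told apart here.

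By the sum of height ranks, the foremost 12 promoters in both libraries included those of Elf1, an ETS factor (16.9 and 3.45), Nr1h3, the liver X receptor alpha (8.69 and 3.14), Cebpa (7.92 and 3.11), which encodes C/EBP alpha, and Irf8 (5.57 and 2.26), a factor of monocytes and dendritic cells. Bhlhe40, Etv6, Cebpb, Id3 and Klf4, also transcription factors, and Coro1a, an actin regulator of leukocytes (5.1 and 2.09), and Lck, the T-cell kinase (5.36 and 1.64), were also among them. Several of these factors are also used by other cells of muscle. The gene of this list with the most shared distal peaks was Fcgr4, with 7, which shares part of the Fcgr3 window. Bhlhe40, Cd4, Elane, Klf4 and Nfe2 tied next with 3 each. The gene itself had the nearest TSS for 3 of the 7 at Fcgr4 and for all 3 at Bhlhe40 and Klf4. At Cd4, Elane and Nfe2 it had the nearest TSS for 0 of the 3.

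Lists of 10 genes each for other cells of the muscle give the scale. Shared promoter peaks were found at 2 skeletal muscle, 0 endothelial, 2 mural, 3 fibro-adipogenic and 5 Schwann cell genes. The mean number of shared distal peaks was 1.3, 0.5, 0.3, 0.6 and 1.5, and 0.743 over the 105 other leukocyte genes, beside 3.0 for the 9 genes with Fcgr3 among them. The 9 were picked with such counts in view and the lists are short, so the order is a description.

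**Figure D4:**
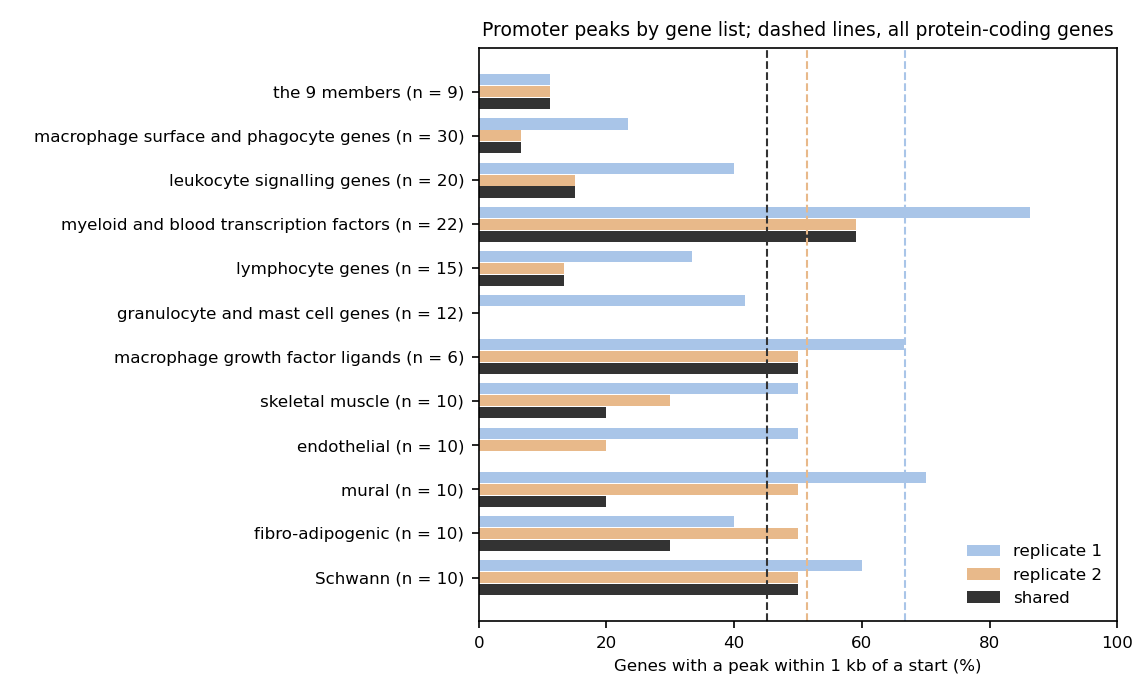
Percentage of genes with a peak within 1 kb of a TSS in replicate 1, in replicate 2 and shared, as bars from 0 for the 9 genes, 6 leukocyte lists and 5 lists of other cells, with dashed lines at 66.7%, 51.4% and 45.1% over all protein-coding genes. The 9 genes and the macrophage surface list have the shortest bars for replicate 1, and the myeloid and blood transcription factors the longest, at 19 of 22 in replicate 1.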

How the data were processed

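DNase-seq was measured in 2 libraries of 1 group. Per the labels the assembly is mm10. The authors deposited for each library 2 peak lists called on that library's filtered alignments alone, per the deposited file lists. The deposited value of a peak is its height in a signal that the authors had normalized to read depth. The deposited intervals give an FDR, a corrected p-value, of at most 0.05, and the deposited footprints hold a constant score of 0.01, so they were only counted. For aligner, callers, versions, thresholds and read totals the entry is: not given in the sources used here. How reads with several positions were kept could change peaks in repeated tRNA genes.

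From these files, peaks of the shorter list were placed against GENCODE M21 TSSs and RefSeq tRNA genes (GRCm38), and motifs were matched in the reference, which is not the hybrid's own sequence. Distal means more than 1 kb from every protein-coding TSS. No test was run, because there is no second condition. Alternatives were the longer list, the tallest peaks, merged peaks, other windows, TSS sets and overlaps, and each library alone.

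The 9 genes, the lists and the rule for named genes were chosen with earlier results of these data known. The rule took all 9 genes, each one's tallest promoter and shared distal peak with the 3 nearest TSSs and up to 3 owners of nearby promoters, 12 leukocyte promoters by summed height ranks and the 5 leukocyte genes with most shared distal peaks, with ties kept. Peaks of Laptm5, Spi1, Fcgr3, Mrc1 and Cd68, the 5 with the tallest, are printed. Peaks and genes named beyond the rule (the PU.1 and RUNX matches, tRNA genes, C1qb) were chosen after their values were seen. Of the leukocyte list, 1 gene of 106 was not found. Overlap code was tested on simulated data and differed from bedtools 2.31.1 in 0 of 1236 pairs. The code used pysam 0.24.0, pandas 2.3.3, numpy 2.4.6 and matplotlib 3.10.9 under Python 3.11.15. A few items that the rule would name are not reported here.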

Additional observations from a re-analysis of the deposited data

How the results depend on the processing

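Counts are small, so a change of 1 peak can be over 1.5 times. Of 102 recomputed summary counts, 34 moved by that much. Members with a promoter peak in replicate 1 and replicate 2 numbered 4 and 2 with the longer list, and 0 and 0, with 0 shared, from basic transcripts only. They were also 0, 0 and 0 without Fcgr3 and with peaks within 100 bp of a tRNA gene left out, both chosen after seeing the data. Distal peaks in replicate 1 were 110 with the longer list, 30 among the tallest, 24 within 20 kb and 119 within 100 kb. In replicate 2 they were 11 within 20 kb, 14 without Fcgr3 and 19 without tRNA-adjacent peaks. Shared distal peaks were 11 within 20 kb and 13 without Fcgr3, and those nearest to a member 8 among the tallest and 8 without Fcgr3. Leaving out a library, so that all distal peaks of the other count, gave 29 to 72 distal peaks and 14 to 30 nearest to a member. Leukocyte genes with a promoter peak were 19 among the tallest peaks of replicate 1 and 35 with the longer list of replicate 2. Footprints were 99 among the tallest peaks of replicate 1, and in replicate 2 were 45 without Fcgr3 and 51 without tRNA-adjacent peaks. B box matches were 4 among the tallest peaks of replicate 1, and 0 in both libraries without Fcgr3 and without tRNA-adjacent peaks. The alternatives changed which peaks, TSSs or genes were counted. Of 107 counts for single genes, 20 moved. No paired analysis was possible because there is 1 group only. Depth per library is not known here.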
